A study of Arabidopsis thaliana with 11 samples.

Results

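The introns described here are the short internal introns of Arabidopsis, those of 20 to 79 bp that are neither the first nor the last intron of a gene with 3 to 19 introns. They were chosen by gene structure and length alone, and 9226 of the 121244 introns in the deposited tables met the rule, in 5815 of 22121 genes. They made up 13.3% of the 69248 internal introns of such genes. The other internal introns comprised 39049 of 80 bp to under 120 bp, 15577 of 120 bp to under 300 bp and 5331 of 300 bp or more, and these 59957 together are called the longer internal introns.

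All material came from 10-day-old seedlings of wild-type Col-0 Arabidopsis thaliana, with no other genotype or treatment. Nuclei were washed with urea so that RNA held on chromatin by RNA polymerase II stayed in the pellet, and CB-RNA is that chromatin-bound RNA with only rRNA removed (2 libraries). The chromatin-bound RNA was also sequenced after removal of both rRNA and polyadenylated RNA (RNAe, elongating RNA, 2 libraries), after removal of rRNA alone (RNAe + RNAf, 2 libraries) and as polyadenylated RNA only (RNAf, full-length transcripts still on chromatin, 2 libraries). Mature polyadenylated RNA of seedlings was the last group (mRNA, 3 libraries). CB-RNA and RNAe + RNAf are separate libraries with the same depletion by their labels. Each preparation enriches a mixture of transcripts from all cells of the seedling, so fewer cells expressing a gene and less RNA per cell cannot be told apart.

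For every intron the tables give exonic and intronic read counts beside the 5ʹ splice site (5ʹSS) and beside the 3ʹ splice site (3ʹSS), and their quotient, intronic over exonic. A ratio near 0 means that few transcripts still held the intron at that site, and a ratio near 1 that about as many reads lay in the intron as in the exon. Libraries of a group share 1 set of values in these tables, so no spread between libraries and no test could be had. Differences between groups or length classes below are therefore descriptive, and the Wilson 95% intervals given for single introns cover counting error only. They treat intronic and exonic counts as separate reads. Whether a read that crosses a splice site enters both counts was not tested.

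Introns are removed by the spliceosome, which recognises the 5ʹ splice site, a branch site and the 3ʹ splice site, and which needs a minimum of intron length to hold them at once. In plants, recognition is helped by introns rich in A and T, and most plant introns are short. Much of this removal takes place while the polymerase is still on the gene, and some introns are removed later, from polyadenylated transcripts that remain on chromatin.

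The 5 shortest well-covered members and a 59-bp intron with a low ratio in mRNA are printed first, because the ratio changed most with length around 60 bp. Each is printed 5ʹ to 3ʹ in the direction of transcription, from the RefSeq copy of the TAIR10 genome (TAIR10.1). The first 6 and the last 3 bases are in capitals.
AT4G36520 intron 2 (34 bp, chr4:17233130-17233163, minus strand): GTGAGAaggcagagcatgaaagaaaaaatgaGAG
EXT4 intron 2 (46 bp, chr1:28895785-28895830, minus strand): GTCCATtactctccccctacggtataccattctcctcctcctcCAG
WRKY19 intron 8 (50 bp, chr4:7206379-7206428, plus strand): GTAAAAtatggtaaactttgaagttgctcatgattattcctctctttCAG
AT5G48110 intron 3 (52 bp, chr5:19503541-19503592, minus strand): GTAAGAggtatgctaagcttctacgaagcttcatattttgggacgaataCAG
AT5G28400 intron 5 (52 bp, chr5:10346039-10346090, minus strand): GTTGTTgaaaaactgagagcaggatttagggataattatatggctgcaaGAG
AT4G24930 intron 3 (59 bp, chr4:12821874-12821932, minus strand): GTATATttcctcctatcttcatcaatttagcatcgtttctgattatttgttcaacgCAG
Of these, AT5G48110 intron 3 is no intron of RefSeq and lies inside an exon of a RefSeq transcript. The other 5 lie between coding exons, and EXT4 intron 2 also lies inside an exon of a RefSeq transcript.

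The following 5 introns had the largest difference between RNAf and mRNA, with high ratios in polyadenylated RNA on chromatin and much lower ones in mRNA. Their mRNA ratios at the 5ʹSS, 0.0536 to 0.106, still lay above the upper quartile of members in mRNA, 0.0321.
MTHFR2 intron 4 (79 bp, chr2:18263666-18263744, plus strand): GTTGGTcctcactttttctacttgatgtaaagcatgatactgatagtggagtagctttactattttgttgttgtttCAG
OPT7 intron 3 (74 bp, chr4:6631649-6631722, minus strand): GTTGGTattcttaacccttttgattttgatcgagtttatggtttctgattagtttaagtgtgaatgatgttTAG
PUX1 intron 4 (75 bp, chr3:10088205-10088279, minus strand): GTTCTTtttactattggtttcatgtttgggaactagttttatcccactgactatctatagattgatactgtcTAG
CYP72A8 intron 3 (70 bp, chr3:4915920-4915989, plus strand): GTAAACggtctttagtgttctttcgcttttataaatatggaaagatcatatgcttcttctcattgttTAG
MCCB intron 5 (78 bp, chr4:16302860-16302937, plus strand): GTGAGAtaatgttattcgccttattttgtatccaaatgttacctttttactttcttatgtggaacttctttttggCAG
Against them stand the 5 with the lowest ratio in RNAe, which were nearly absent from elongating RNA.
OTS2 intron 3 (74 bp, chr1:3488570-3488643, plus strand): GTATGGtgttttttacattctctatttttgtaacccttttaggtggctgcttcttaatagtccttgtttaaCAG
ABCC8 intron 3 (74 bp, chr3:7460509-7460582, minus strand): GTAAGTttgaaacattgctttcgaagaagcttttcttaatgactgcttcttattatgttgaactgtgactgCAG
LCL1 intron 5 (78 bp, chr5:650356-650433, plus strand): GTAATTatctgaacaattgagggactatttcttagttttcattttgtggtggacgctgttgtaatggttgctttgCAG
SHM1 intron 8 (78 bp, chr4:17833204-17833281, minus strand): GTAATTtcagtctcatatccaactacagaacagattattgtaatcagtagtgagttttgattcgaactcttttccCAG
ATSUV3 intron 3 (78 bp, chr4:8499020-8499097, minus strand): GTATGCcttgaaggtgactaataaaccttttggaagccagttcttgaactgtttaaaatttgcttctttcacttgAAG
All 10 lie between coding exons in RefSeq, and OPT7 intron 3 also lies inside an exon of a RefSeq transcript.

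Members were unevenly spread over the length range, with a median of 75 bp and 7990 of 9226 at 70 to 79 bp. Only 279 were of 20 to 59 bp. RefSeq held an intron with the same start, end and strand for 9125 members, and 8794 lay between coding exons. By the RefSeq gene table, 24.7% of the members of 20 to 59 bp and 2.5% of those of 60 to 79 bp belonged to pseudogenes. Most genes held 1 member (3616 genes), 1423 held 2, and the most in a gene was 10. Between 76.6% and 80.6% of members had a ratio at a given site in a given group, and 6660 had one at both sites in all groups. Exonic reads per member had medians of 78 for CB-RNA, 38 for RNAe, 29 for RNAe + RNAf, 239 for RNAf and 422 for mRNA at the 5ʹSS, so single ratios were least precise in RNAe + RNAf.

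Short internal introns had higher ratios in CB-RNA, RNAe and RNAe + RNAf than in RNAf, and the lowest in mRNA. At the 5ʹSS their median ratio was 0.303 for CB-RNA, 0.333 for RNAe and 0.28 for RNAe + RNAf. It was 0.0616 in RNAf and 0.00878 in mRNA. The 3ʹSS gave the same order, with medians of 0.308 for CB-RNA, 0.348 for RNAe, 0.286 for RNAe + RNAf, 0.0682 for RNAf and 0.01 for mRNA. Members varied widely within each group. The middle 50% of 5ʹSS ratios ran between 0.176 and 0.556 in RNAe, between 0.0184 and 0.175 in RNAf, and between 0.00101 and 0.0321 in mRNA.

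The median ratio of short introns was above that of longer internal introns in every group and at both sites, by a margin that depended on the processing. At the 5ʹSS the median for members exceeded that for longer internal introns by 0.0246 for CB-RNA, 0.0333 for RNAe, 0.0278 for RNAe + RNAf, 0.0235 for RNAf and 0.00357 for mRNA. These differences were small beside the level itself, since members had a median of 0.333 in RNAe and longer internal introns had 0.3. In RNAf the members had 0.0616 and the longer internal introns 0.0381, and in mRNA the members had 0.00878 and the longer internal introns 0.00521. At the 3ʹSS the differences were 0.00769 for CB-RNA, 0.0145 for RNAe, 0.00311 for RNAe + RNAf, 0.0194 for RNAf and 0.00381 for mRNA, and these were the least stable. With reads summed over introns the difference in CB-RNA was 0.0121 at the 5ʹSS and 0.00104 at the 3ʹSS, that in RNAe 0.0198 at the 5ʹSS, that in RNAf 0.0106 at the 3ʹSS and that in mRNA 0.00622 at the 5ʹSS. The 3ʹSS difference in RNAe was 0.0059 with a minimum of 50 exonic reads, and that in RNAe + RNAf was 0.000537 over members outside RefSeq exons. Not every longer class followed this order. Introns of 300 bp or more had 5ʹSS medians of 0.368 in RNAe, above the members, 0.0518 in RNAf, below them, and 0.00933 in mRNA, above them. At the 3ʹSS they had 0.412 in RNAe and 0.0799 in RNAf, above the members, and 0.00923 in mRNA, below them. Introns of 120 bp to under 300 bp also lay above the members at the 3ʹSS in 3 groups, with medians of 0.324 (CB-RNA), 0.36 (RNAe) and 0.31 (RNAe + RNAf). They lay below the members there in RNAf, at 0.05565, and in mRNA, at 0.007035.

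**Figure D1:**
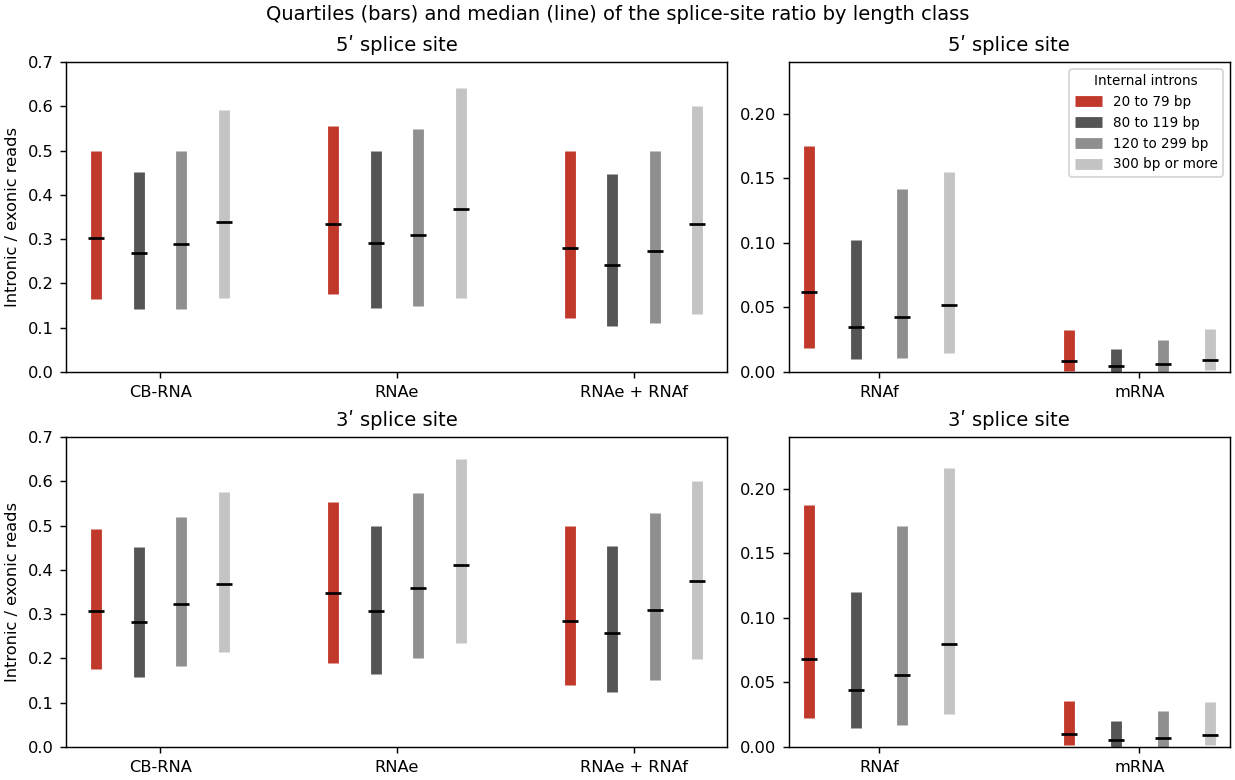
Quartiles of the ratio of intronic to exonic reads (vertical axis, no unit) for internal introns of 20 to 79 bp (red) and of 3 longer classes (grey), in each group (horizontal axis) and at each splice site. Bars span the lower to the upper quartile over introns and black lines mark the medians, and the scale of the right panels is finer. Members lie above introns of 80 bp to under 120 bp in all groups, for example at 0.0616 and 0.0348 in RNAf at the 5ʹ splice site.

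Introns with high ratios at both sites were commoner among members than among longer internal introns, mainly through the shorter members. With at least 20 exonic reads at each site, 1.26% of 6961 members and 0.605% of 49741 longer internal introns had a ratio of 0.5 or more at both sites in mRNA. In RNAf these shares were 5.8% of members and 3.39% of longer internal introns. In RNAe they were 19.5% of members and 16.3% of longer internal introns. Among members of 75 to 79 bp the share in mRNA was 0.528%, below that of longer internal introns. Their shares in RNAf, 3.77%, and in RNAe, 16.7%, were slightly above. In CB-RNA 13.5% of members of 75 to 79 bp and 13.9% of longer internal introns were at 0.5 or more at both sites. At the low end, 57.7% of members and 65.3% of longer internal introns were under 0.1 at both sites in RNAf, while in RNAe 6.69% of members and 6.92% of longer internal introns were. In CB-RNA the share under 0.1 was larger among members, at 7.65% of members and 7.18% of longer internal introns, and in RNAe + RNAf it was 10.8% of both. Of the 88 members at 0.5 or more in mRNA, 39 lay inside an exon of a RefSeq transcript on the same strand. No RefSeq intron matched 21 of the 88. Of the 301 longer internal introns at 0.5 or more in mRNA, 118 lay inside such an exon and 57 had no matching RefSeq intron.

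The 2 sites of an intron seldom differed in a fixed direction among members. The 3ʹSS ratio was the higher one in 51.4% and the 5ʹSS ratio in 45.9% of members in CB-RNA, with a median difference of 0.0034. In RNAf the 3ʹSS was higher in 54.1% and the 5ʹSS in 40% of members. Introns of 300 bp or more leaned further to the 3ʹSS, which was higher in 65.8% of them in RNAf. In mRNA 17.9% of members had equal ratios at both sites, and 22.9% of them had no intronic read at the 5ʹSS.

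The ratio depended on length within the class far more than it differed between the class and longer introns. Introns of 20 to 49 bp had 5ʹSS medians of 0.976 for CB-RNA, 1 for RNAe, 1 for RNAe + RNAf, 1.02 for RNAf and 0.985 for mRNA. Introns of 50 to 59 bp had 0.83, 0.847, 0.882, 0.893 and 0.853 in the same order of groups. The typical intron under 60 bp thus had nearly as many intronic as exonic reads in all groups, but the spread in mRNA was wide. At 50 to 59 bp the lower quartile in mRNA was 0.0204 at the 5ʹSS, and 55.3% of these introns were at 0.5 or more. With reads summed over introns of 50 to 59 bp, the 5ʹSS ratio was 0.868 in RNAe, 0.618 in RNAf and 0.13 in mRNA, so that by reads these introns were covered far less than exons in mRNA. Few such introns were counted by the authors, with a 5ʹSS ratio for 32 of 149 and 46 of 130 introns in RNAe.

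Between 60 and 79 bp the groups came apart. At 60 to 64 bp the 5ʹSS median was 0.632 in RNAe, 0.255 in RNAf and 0.0663 in mRNA. At 65 to 69 bp it was 0.402 in RNAe, 0.139 in RNAf and 0.0246 in mRNA. At 70 to 74 bp it was 0.346 in RNAe, 0.0756 in RNAf and 0.011 in mRNA. From 60 bp on, each 5 bp thus brought a lower median in all 3 groups. From 60 to 64 bp on to 65 to 69 bp the drop in the ratio itself was largest in RNAe and the proportional drop largest in mRNA. At 75 to 79 bp the medians reached 0.312 in RNAe, 0.0483 in RNAf and 0.00641 in mRNA, and introns of 80 bp to under 120 bp had 0.29, 0.0348 and 0.00442. Expressed as a share of the RNAe median, the mRNA median was 10.5% at 60 to 64 bp, 6.11% at 65 to 69 bp, 3.16% at 70 to 74 bp, 2.06% at 75 to 79 bp and 1.52% at 80 bp to under 120 bp. For RNAf that share was 40.4% at 60 to 64 bp and 15.5% at 75 to 79 bp. The 3ʹSS followed the 5ʹSS, with RNAf medians of 0.34 at 60 to 64 bp and 0.0552 at 75 to 79 bp.

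No step lay at the 80-bp limit itself. Members of 79 bp had 5ʹSS medians of 0.3 in RNAe, 0.0415 in RNAf and 0.00568 in mRNA, and introns of 80 bp had 0.3 in RNAe, 0.0418 in RNAf and 0.00555 in mRNA. In introns of 60 bp and more that lay outside every RefSeq exon the fall with length was smaller but of the same direction. There the 5ʹSS median in RNAf was 0.204 at 60 to 64 bp, 0.117 at 65 to 69 bp and 0.045 at 75 to 79 bp.

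**Figure D2:**
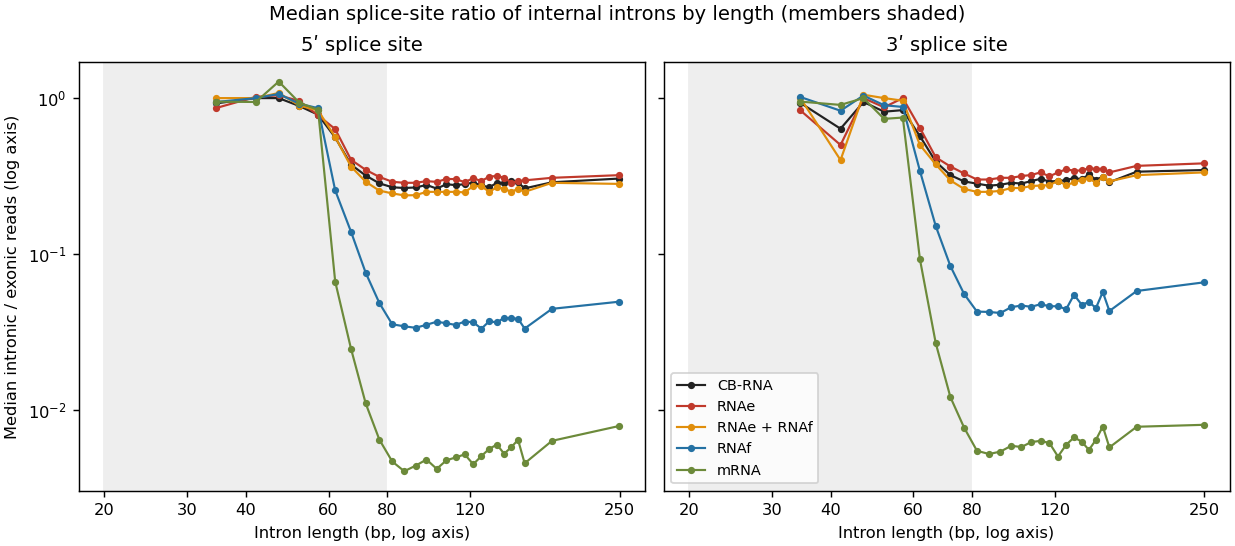
Median ratio of intronic to exonic reads (vertical log axis) against intron length (horizontal log axis, bp) for internal introns, in the 5 groups and at each splice site. Points are medians over introns of a length bin with at least 5 ratios, and grey shading marks 20 to 79 bp. Most points under 60 bp lie near 1, with few introns behind each (at 40 to 44 bp the 3ʹ splice-site medians are 0.5 in RNAe and 0.4 in RNAe + RNAf, over 7 introns each), and the groups separate between 60 and 80 bp, where mRNA is lowest.

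Introns this short set a limit on the measurement. Intronic read counts at the 5ʹSS and 3ʹSS were identical in all 16 values from introns of exactly 26 bp that had at least 5 intronic reads, and exonic counts at both ends were identical in all 44 exons of 26 bp in mRNA. At 25 bp the exons matched in 20 of 48 cases and at 27 bp in 21 of 54. The counting windows therefore appear to be 26 bp wide on each side of a splice site, a width the sources used here do not state. In an intron of 51 bp or less the windows at its ends overlap, and in an intron of under 26 bp they run into the exon beyond. Windows do not overlap in introns of 60 to 64 bp, which had 5ʹSS medians of 0.632 in RNAe and 0.0663 in mRNA. The share of window overlap in the high ratios was not tested.

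The shortest well-covered members showed how a ratio near 1 looks in single introns. AT4G36520, a gene for a protein with a DnaJ chaperone domain, holds the 34-bp intron. Its 5ʹSS ratio was 0.915 for CB-RNA, 0.835 for RNAe, 0.872 for RNAe + RNAf, 0.923 for RNAf and 1 for mRNA. All 5 groups lay close together, and their Wilson intervals overlapped. Its 3ʹSS ratio was higher, running between 1.6 (CB-RNA, interval 1.45 to 1.76) and 1.79 (mRNA, interval 1.54 to 2.08). EXT4, which encodes the cell wall protein extensin, had 5ʹSS ratios of 1.01 for CB-RNA, 0.903 for RNAe, 0.739 for RNAe + RNAf, 1.1 for RNAf and 1.12 for mRNA at its 46-bp intron, which lies inside a RefSeq exon. That mRNA value rested on 10723 intronic and 9565 exonic reads. AT5G48110, of the terpenoid cyclase family, and AT5G28400, annotated as an embryo defective protein, each hold a 52-bp intron. Both introns had 5ʹSS ratios between 0.826 and 1.09 in all groups. That of AT5G48110 matches no RefSeq intron and lies inside a RefSeq exon.

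WRKY19 differed from these, and its 50-bp intron was the one among the 5 shortest with ratios under 0.5 in mRNA. The gene encodes a protein that joins a kinase and a WRKY transcription factor domain. Its 5ʹSS ratio was 0.837 for CB-RNA, 0.916 for RNAe and 0.887 for RNAe + RNAf, then 0.6 in RNAf (interval 0.473 to 0.761) and 0.451 in mRNA (interval 0.359 to 0.567). The mRNA interval did not overlap those of CB-RNA, RNAe and RNAe + RNAf. Among the 18 members of 20 to 59 bp with at least 20 exonic reads at both sites in both RNAe and mRNA, 10 were at 0.5 or more in mRNA at both sites and 1 was under 0.1 at both. That 1 was intron 3 of AT4G24930, a gene for a protein of the thylakoid lumen, chosen here after its values were seen. Its 5ʹSS ratio was 0.66 for CB-RNA, 0.515 for RNAe, 0.702 for RNAe + RNAf, 0.35 for RNAf and 0.0359 for mRNA (102 intronic and 2838 exonic reads). At 59 bp it thus had the pattern of the members of 60 bp or more.

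The sequences of the shortest members differed from the rest. The shares given here are over all listed introns, and only 84 of the 279 under 60 bp were counted in RNAe. A pyrimidine stood before the final AG in 52.3% of introns of 20 to 49 bp, 63.8% at 50 to 59 bp, 82.1% at 60 to 64 bp and 94.6% at 75 to 79 bp, against 92.9% in introns of 80 bp to under 120 bp. Endings in GAG made up 14.3% of introns under 60 bp and 0.615% of those of 60 to 79 bp. Introns under 60 bp had a median A and T content of 62.2%, those of 60 to 79 bp 67.1% and those of 80 bp to under 120 bp 67.5%. GT and AG at the ends were near universal, in 96.1% under 60 bp and 99.3% at 60 to 79 bp. A branch-site-like CTNAN was searched in the direction of transcription alone, at starts 50 to 15 bases before the intron end. It was found in 45.9% of introns under 60 bp, 66.3% at 60 to 79 bp and 62.5% of all introns. The search range is shorter in introns under 50 bp.

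**Figure D3:**
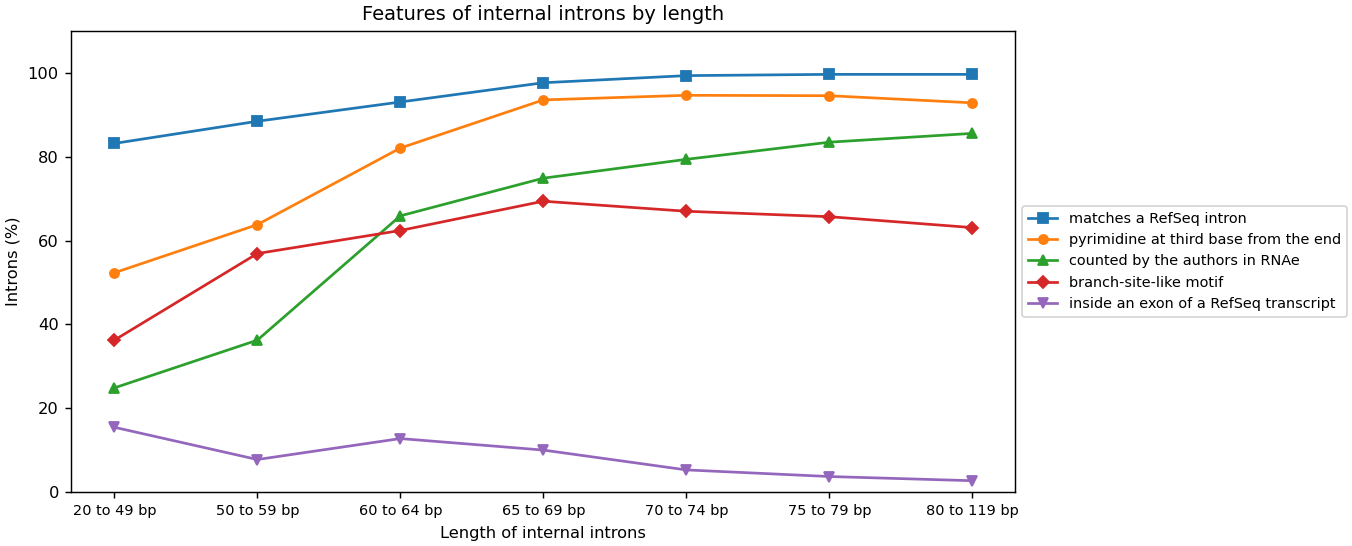
Share of internal introns (vertical axis, percent) with a feature, by length bin (horizontal axis). Lines join the bins for introns that match a RefSeq intron, that have a pyrimidine at the third base from the end, that were counted in RNAe, that hold a branch-site-like motif, or that lie inside an exon of a RefSeq transcript. A pyrimidine at that base was found in 52.3% at 20 to 49 bp and in 94.6% at 75 to 79 bp.

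Annotation went with the level of the ratio as well. The 464 members inside an exon of a RefSeq transcript on the same strand had 5ʹSS medians of 0.63 in RNAe, 0.414 in RNAf and 0.1 in mRNA. The 8762 members outside such exons had 0.32, 0.0553 and 0.00752. The 101 members with no matching RefSeq intron had medians of 0.974 in RNAe, 0.94 in RNAf and 0.933 in mRNA, so that intronic and exonic reads were nearly equal there in these groups. Introns inside an exon were commoner among the shorter members, at 12.7% of introns of 60 to 64 bp and 3.63% of those of 75 to 79 bp.

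Among members of 60 to 79 bp, the 3ʹ end and the branch-site-like letters went with the ratio. Introns without CTNAN in the search range had 5ʹSS medians of 0.361 in RNAe, 0.0867 in RNAf and 0.0134 in mRNA, and introns with it had 0.319 in RNAe, 0.0505 in RNAf and 0.007 in mRNA. Introns ending in CAG had 3ʹSS medians of 0.333 in RNAe, 0.0608 in RNAf and 0.00897 in mRNA. Those ending in TAG had 0.363, 0.076 and 0.0104, and the 448 ending in AAG had 0.4, 0.1245 and 0.01826. The 55 introns that ended in GAG stood apart, with 3ʹSS medians of 0.86 in RNAe, 0.845 in RNAf and 0.833 in mRNA over 21 or 22 introns, and a lower 5ʹSS median of 0.094 in mRNA. Introns that began with GTAAG, letters complementary to U1 snRNA, had lower medians, with 0.319 in RNAe, 0.0541 in RNAf and 0.00713 in mRNA at the 5ʹSS, against 0.333, 0.0621 and 0.00895 for other beginnings. At the 3ʹSS in RNAf they had 0.0582 and other beginnings 0.07.

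Members that would keep the reading frame if retained had somewhat lower medians at some sites and not at others. Among members between coding exons, the 403 of a length divisible by 3 and with no stop codon in frame had 5ʹSS medians of 0.309 in RNAe, 0.0585 in RNAf and 0.00871 in mRNA, and a 3ʹSS median of 0.00778 in mRNA. The 2486 of a length divisible by 3 that held a stop codon had 0.333, 0.0606 and 0.00865 at the 5ʹSS, and 0.00939 at the 3ʹSS in mRNA. The 4658 that shifted the frame and held a stop had 0.333 in RNAe, 0.06 in RNAf and 0.00851 in mRNA at the 5ʹSS, and 0.0101 at the 3ʹSS in mRNA. The 1247 that shifted the frame and held no stop had 0.333 in RNAe at the 5ʹSS. At the 3ʹSS in RNAf the frame-keeping members had 0.0683, and those divisible by 3 with a stop had 0.0688.

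Next, the fractions were compared intron by intron. The RNAe ratio was higher than the RNAe + RNAf ratio at the 5ʹSS in 58% of 7048 members and lower in 38.7%, and its median over members was 0.0533 higher. A difference was called at 2-fold or more where both groups had 20 exonic reads or more. By this rule 14.4% of members were higher in RNAe at the 5ʹSS, against a background of 14.3% of all introns, and 6.4% were lower, against 7.14% of all introns. At the 3ʹSS 14.6% of members were higher (13.6% of all introns) and 5.69% lower (6.41% of all introns). Short introns were thus called about as often as introns in general.

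CB-RNA and RNAe + RNAf, the libraries with like depletion, differed by an amount that depended on the processing. The CB-RNA ratio was the higher one at the 5ʹSS in 53.4% of members and the lower one in 44.3%. The median difference of 0.0234 turned to -0.00232 when reads were summed over introns, and at the 3ʹSS 0.022 turned to -0.0018. With a minimum of 50 exonic reads the differences were 0.0369 at the 5ʹSS and 0.0432 at the 3ʹSS.

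RNAf held far less of the short introns than RNAe did and more than mRNA did. RNAe was above RNAf at the 5ʹSS in 87.4% of members and below it in 10.7%, and the median was 5.41 times as high in RNAe. RNAf was above mRNA in 86.4% of members and below it in 7.49%, with a median 7.01 times as high. For longer internal introns the RNAe median was 7.87 times that of RNAf and the RNAf median 7.31 times that of mRNA. RNAe was above mRNA in 93.7% of members, and its median was 38 times as high, while the median of longer internal introns was 57.6 times as high. These folds between medians were larger than those by reads. With reads summed over members the 5ʹSS ratio was 0.354 in RNAe, 0.124 in RNAf and 0.0215 in mRNA, and over longer internal introns 0.334 in RNAe, 0.0995 in RNAf and 0.0153 in mRNA. At the 2-fold limit, 69.6% of 6872 members were higher in RNAf than in mRNA at the 5ʹSS, with 65.4% of all introns called, and 71% of 6880 members at the 3ʹSS, with 69.6% of all introns called. Only 0.8% of members at the 5ʹSS and 0.712% at the 3ʹSS were lower in RNAf, beside 0.783% and 0.647% of all introns. Introns under 60 bp were called less often, with 2 of 16 at 20 to 49 bp and 9 of 32 at 50 to 59 bp higher in RNAf at the 5ʹSS. From 60 to 79 bp the share called ran between 68.3% and 73.7% in the 4 length bins.

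Single introns showed how large the change between RNAf and mRNA could be. MTHFR2, an enzyme of folate metabolism, had ratios at the 5ʹSS of intron 4 of 0.696 for CB-RNA, 0.505 for RNAe, 0.814 for RNAe + RNAf, 0.814 for RNAf and 0.0755 for mRNA. It was high in all 4 chromatin-bound groups, and the mRNA interval (0.0672 to 0.0848) lay far below that of RNAf (0.739 to 0.897). OPT7, an oligopeptide transporter, had 0.394, 0.853, 0.728, 0.621 and 0.0726 in the same order of groups at intron 3. Its CB-RNA value at the 3ʹSS was 0.724, so that the low 5ʹSS value there was not seen at the other site. PUX1, a UBX domain protein that acts on the CDC48 ATPase, had 0.738, 0.821, 0.732, 0.586 and 0.0536 at intron 4. CYP72A8, a cytochrome P450, had 1.08, 0.837, 1.04, 0.591 and 0.106 at intron 3. MCCB, a subunit of the leucine-degrading enzyme methylcrotonyl-CoA carboxylase, had 0.728, 0.675, 0.701, 0.539 and 0.0584 at intron 5. In each of these 5 introns, which were chosen for this difference, the RNAf ratio was within 2-fold of RNAe and over 5-fold above mRNA.

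A contrasting set, chosen for high RNAe and low mRNA ratios, was lower in RNAf. VHA-A3, a subunit of the proton pump of the vacuole, had 5ʹSS ratios at its 73-bp intron 16 of 0.876 for CB-RNA, 1.12 for RNAe, 0.5 for RNAe + RNAf, 0.00552 for RNAf and 0 for mRNA. The mRNA value came from 0 intronic reads beside 2475 exonic reads, which allows a ratio of up to 0.00121. Tudor1, an RNA-binding nuclease homologue, had 0.637 for CB-RNA, 0.772 for RNAe, 0.717 for RNAe + RNAf, 0.0579 for RNAf and 0.00498 for mRNA at intron 15. TL29, a protein of the thylakoid lumen related to ascorbate peroxidase, had 0.74 in RNAe, 0.0948 in RNAf and 0.0193 in mRNA at intron 7. Higher RNAf values were found in the remaining members of the set. ALIS1, a subunit of lipid flippases, had 0.878 in RNAe, 0.261 in RNAf and 0.016 in mRNA at intron 3. PPa5, a pyrophosphatase, had 0.776 in RNAe, 0.348 in RNAf and 0.0178 in mRNA at its intron 3. RNAf therefore varied from 0.00552 to 0.348 among introns chosen for a high RNAe and a low mRNA ratio.

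Some short introns, the 5 chosen for the lowest ratios in RNAe, were almost gone from elongating RNA. An RNAe ratio below that of the other groups follows in part from this choice. OTS2, a protease that removes the modifier SUMO, had no intronic read in RNAe at either site of its 74-bp intron 3, with 101 exonic reads at the 5ʹSS, which allows a ratio of up to 0.0297. Its CB-RNA ratio at that site was 0.0754 (interval 0.0475 to 0.12). ABCC8, an ABC transporter, had none at the 5ʹSS of intron 3 in CB-RNA and RNAe, where 81 exonic reads in RNAe allow up to 0.037, and 0.0606 in RNAe + RNAf. LCL1, a clock-related MYB factor also called RVE4, had 0.0375 for CB-RNA, 0.00917 for RNAe, 0.0588 for RNAe + RNAf, 0.0158 for RNAf and 0.0014 for mRNA at intron 5. These values rested on few intronic reads. SHM1, the mitochondrial serine hydroxymethyltransferase of photorespiration, was the best covered, with 0.0197 for CB-RNA, 0.00714 for RNAe, 0.0747 for RNAe + RNAf, 0.00472 for RNAf and 0.000292 for mRNA at intron 8. The RNAe + RNAf interval (0.0548 to 0.102) lay above that of RNAe (0.00242 to 0.0211), RNAf (0.0027 to 0.00826) and CB-RNA (0.0121 to 0.0321). ATSUV3, a mitochondrial RNA helicase, had 0.129 in CB-RNA, 0.0153 in RNAe and 0.00654 in mRNA at intron 3.

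**Figure D4:**
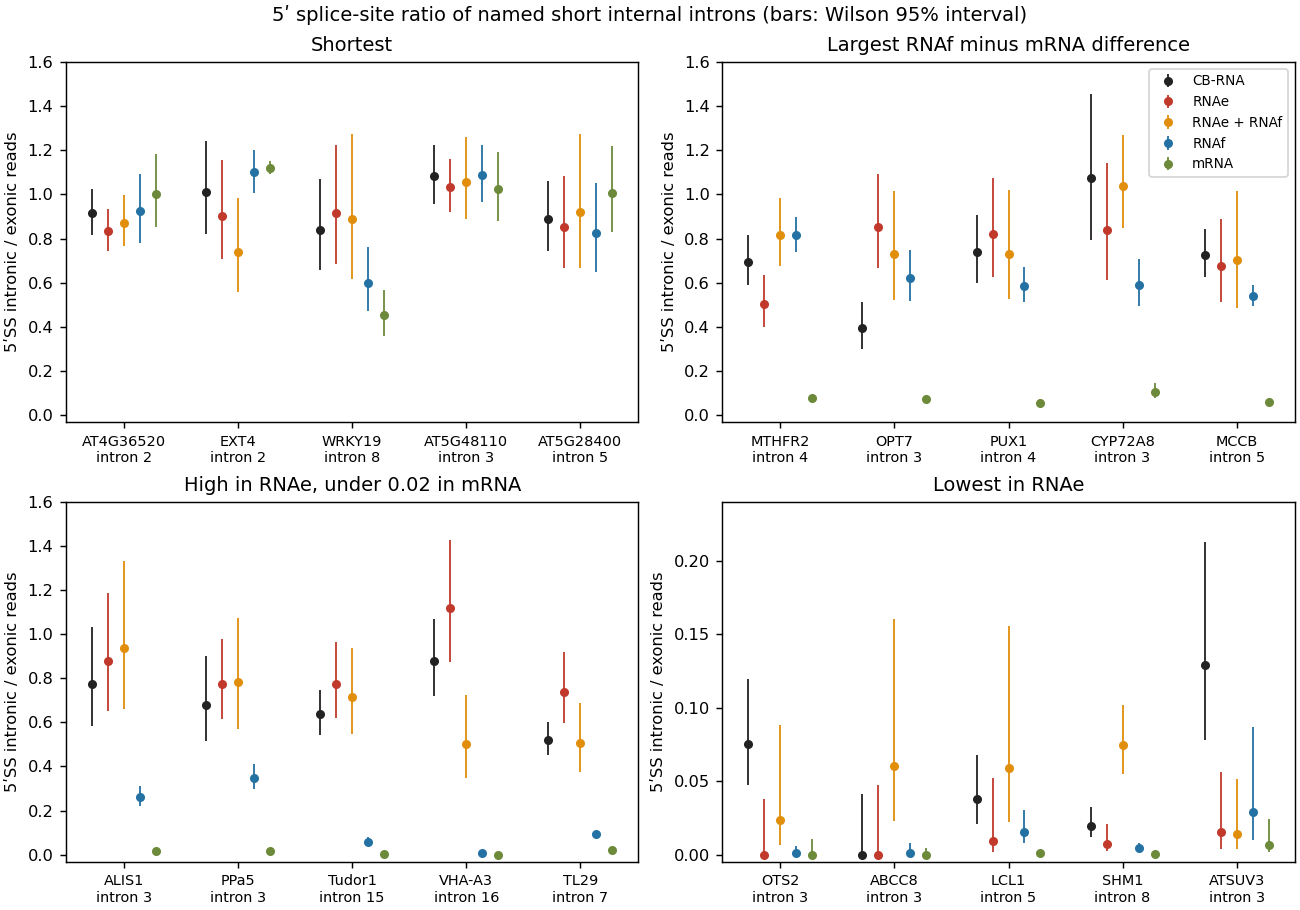
5ʹ splice-site ratio of intronic to exonic reads (vertical axis, no unit) of 20 named introns (horizontal axis) in the 5 groups, with Wilson 95% intervals of counting error as bars. The panels hold the 5 shortest, the 5 with the largest RNAf minus mRNA difference, the 5 high in RNAe and under 0.02 in mRNA, and the 5 lowest in RNAe, whose axis is finer. Of the 5 shortest, WRKY19 is the one under 0.5 in mRNA, at 0.451.

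Among well-covered members in genes with a symbol, the 5 with the highest mRNA ratios, chosen for that value, also had high ratios in all chromatin-bound groups, and 3 of them lay inside RefSeq exons. BGLU5, a beta-glucosidase, had 5ʹSS ratios of 0.892 for CB-RNA, 0.894 for RNAe, 0.888 for RNAe + RNAf, 1.03 for RNAf and 1.03 for mRNA at the 66 bp listed as intron 8. No RefSeq intron matches it, and it lies inside a RefSeq exon. TRM3, a member of the LONGIFOLIA family, had 1.14, 1.14, 1.27, 1.03 and 1.02 in the same order of groups at its 79-bp intron 2, which also lies inside a RefSeq exon. CEL5, a cellulase, had 1.26, 1.23, 1.19, 1.08 and 0.671 at its 78-bp intron 3, which lies outside RefSeq exons. At this 5ʹSS the mRNA interval (0.568 to 0.792) fell below the other 4. At the 3ʹSS the mRNA ratio was 0.7094, and its interval (0.5985 to 0.8407) overlapped the other 4. XDH2, a xanthine dehydrogenase, had 1.52, 1.76, 1.8, 0.928 and 0.564 at intron 4. A near-identical neighbour, XDH1, stands beside XDH2, and the exclusion of reads with several alignments can change counts there, so its values are uncertain. EXT4, described with the shortest introns, completed this set.

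Position and gene structure went with the ratio in members much as in other introns. With the internal introns of a gene ordered from its 5ʹ end and cut into 3 equal ranges, in genes with more than 1 internal intron, members had 5ʹSS medians in RNAe of 0.3 early, 0.312 midway and 0.375 late. Longer internal introns had 0.265 early, 0.3 midway and 0.333 late. In mRNA members had 0.00584 early, 0.00701 midway and 0.0121 late. By number of introns in the gene, the RNAe median of members was 0.458 with 3 to 5 introns, 0.385 with 6 to 8, 0.328 with 9 to 12 and 0.269 with 13 to 19. The RNAf median was 0.145, 0.0841, 0.0502 and 0.0328 in those classes. The ratio was thus lower in genes with more introns, and members lay above longer internal introns in each class, which had RNAe medians of 0.395, 0.336, 0.291 and 0.244. Members were nearly as common in each class, at 12.8% to 13.8% of internal introns.

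Within genes the excess of short introns was small and depended on the comparator. In 4385 genes with both kinds, the mean 5ʹSS ratio of members in RNAe was higher than that of longer internal introns in 50.8% of genes and lower in 49%. In RNAf it was higher in 47.7% and lower in 52.1% of 4482 genes, and in mRNA higher in 45.3% and lower in 53.8% of 4273 genes. A mean over several introns and the ratio of a single one are not like quantities, so single neighbours were compared too. With each member set against the longer internal intron just before it, the order turned in RNAf and mRNA. Members were then higher in 54.3% of pairs in RNAe, 56% in RNAf and 50.9% in mRNA and lower in 43.8%, 40.1% and 37.8%. Against the longer intron just after it they were higher in 51%, 53.7% and 46.7% and lower in 46.8%, 42.2% and 41.8%. The intron before a member lies nearer the 5ʹ end, where RNAe medians were lower, and the part of position was not tested. Length mattered within genes as well. Members of 60 to 69 bp exceeded the gene's longer internal introns at the 5ʹSS in 60.1% of genes in RNAe, 63.6% in RNAf and 59.4% in mRNA, with median differences of 0.0769, 0.0473 and 0.00661. Those of 20 to 59 bp did so in 75.4%, 70.6% and 74% of 65, 68 and 50 genes. Those of 75 to 79 bp were higher in 47%, 40.7% and 39.5% of genes.

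The 3 genes with the most members measured in all groups showed a wide range among neighbours. CHY1, a hydrolase of valine breakdown in peroxisomes, had 7 members among 13 introns. Their 5ʹSS ratios in RNAf had a lowest value of 0.0181, a median of 0.304 and a highest value of 0.494, while its 4 longer internal introns ran between 0.0199 and 0.104. Intron 2, of 64 bp, had 0.87 in RNAe, 0.494 in RNAf and 0.0951 in mRNA, and intron 3, of 61 bp, had 0.287, 0.0226 and 0.0053. The pair shows introns of like length in 1 gene with widely different ratios. EMB2369, a tRNA synthetase family member, had 7 members among 19 introns, with RNAf ratios between 0.0108 and 0.172 and a median of 0.0241. Its 82-bp intron 4, not a member, was higher at 0.5. AT2G48020, a major facilitator superfamily transporter, had 7 members among 16 introns. Introns 13, 14 and 15, of 76, 65 and 64 bp, had RNAf ratios of 0.391, 0.447 and 0.42 at the 5ʹSS, and the 4 members nearer the 5ʹ end had 0.00203 to 0.0213. In mRNA introns 13 to 15 had 0.0829, 0.103 and 0.121, and the other 4 members at most 0.00193.

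**Figure D5:**
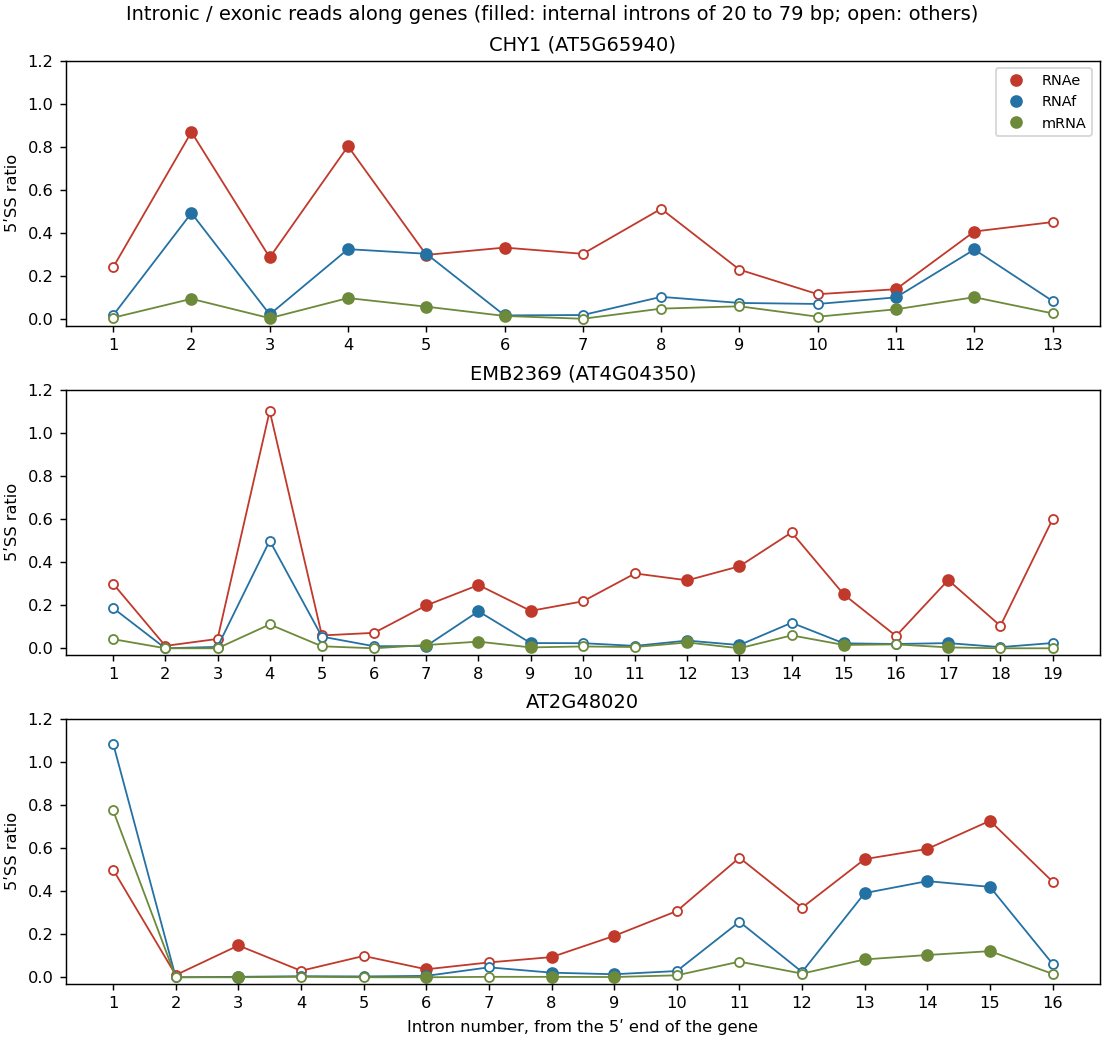
5ʹ splice-site ratio of intronic to exonic reads (vertical axis, no unit) at each intron from the 5ʹ end (horizontal axis, intron number) of the 3 genes with the most members measured in all groups, in RNAe, RNAf and mRNA. Filled points are internal introns of 20 to 79 bp and open points are all other introns of the gene. In AT2G48020 the members at introns 13 to 15 are at 0.391 to 0.447 in RNAf, above the members nearer the 5ʹ end.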

How the data were processed

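Chromatin-bound RNA and mRNA of seedlings were sequenced in 11 libraries. The authors trimmed reads with Trimmomatic 0.39, aligned them to TAIR10 with HISAT2 2.2.0, dropped reads with several alignments, sorted them with SAMtools 1.3.1 and assessed genes with StringTie. They counted genes of FPKM 1 or more, on the longest transcript. The deposited tables hold 1 set of exonic and intronic read counts and of ratios per group and splice site, with replicates pooled by the authors, and ratios recomputed from the deposited counts differed from the deposited ratio by at most 5e-05. Dropping multiply aligned reads lowers counts in repeated genes, and short introns are measured in windows that take up much of their length.

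Members were found by length (20 to 79 bp), order and number of introns. Ratios needed at least 1 exonic read. Medians, quartiles, counts and Wilson 95% intervals of the intronic share, turned into ratios, were computed with Python 3.11.15, pandas 2.3.3 and scipy 1.17.1 and tested on simulated data. A fold call needed 2-fold and 20 exonic reads in both groups, with a lower ratio from under 3 intronic reads set to that of 3 reads. A count of 0 was given the limit of 3 reads. Sequences, symbols and annotation came from RefSeq TAIR10.1, whose gene table holds the locus of 9210 of 9226 members, and introns of the tables began with GT and ended with AG in 98.8% of cases in it.

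Introns were named among the 1739 members with at least 50 exonic reads at both sites in all groups: the 5 highest in mRNA, the 5 with the largest RNAf minus mRNA difference, the 5 lowest in RNAe, the 5 shortest, and the 5 highest in RNAe with mRNA under 0.02, each by its less extreme site, with 1 intron per gene and, except for the shortest, genes with a symbol only. The 3 genes with the most members measured at both sites in all groups were added. Members and lists were chosen with earlier results of these data known. Alternatives were minimum reads of 10, 50 and 100, introns counted in all groups, summed reads, lengths of 60 to 79 bp, GT and AG ends, a 4-fold limit and a pseudocount of 1. Comparisons with neighbouring introns, and with members outside RefSeq exons, were added after seeing the data. Introns under 20 bp, or with a start after the end, were not used.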

Additional observations from a re-analysis of the deposited data

How the results depend on the processing

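No paired analysis was possible because the deposited tables hold 1 pooled set of values per group, and for the same reason no replicate was left out. Depth limits single ratios most in RNAe + RNAf, where members had a median of 29 exonic reads at the 5ʹSS. Of 174 alternative values, 110 stayed within the counting or order-statistic interval of the value reported, 39 moved outside it and 25 changed sign. The cause was not tested in any of them.

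The excess of members over longer internal introns kept its sign in all alternatives. With reads summed over introns it was 0.0121 at the 5ʹSS and 0.00104 at the 3ʹSS in CB-RNA, 0.0198 at the 5ʹSS in RNAe, 0.0106 at the 3ʹSS in RNAf, and 0.00622 and 0.0053 at the 5ʹSS and 3ʹSS in mRNA. Over members outside RefSeq exons, an alternative chosen after seeing the data, it was 0.0196 and 0.0161 at the 5ʹSS and 3ʹSS in RNAf and 0.00276 and 0.00304 in mRNA.

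Between groups, 5ʹSS before 3ʹSS, CB-RNA minus RNAe + RNAf was 0.0369 and 0.0432 with a minimum of 50 exonic reads, and -0.00232 and -0.0018 with summed reads. With summed reads RNAe minus RNAe + RNAf was 0.0311 and 0.0338, RNAe minus RNAf 0.23 and 0.228, and RNAf minus mRNA 0.102 and 0.108. RNAe minus mRNA was then 0.332 at the 5ʹSS. With the minimum of 50 reads RNAe minus RNAf was 0.236 and 0.238, CB-RNA minus mRNA 0.278 and 0.287, and RNAe minus mRNA 0.288 and 0.296. The share of members higher in RNAf than in mRNA was 74.7% and 76.2% with at least 100 exonic reads (70% and 74.2% of all introns), 47.1% and 48.5% at 4-fold (44.9% and 48.9%), and 80.3% and 80.6% with a pseudocount of 1 (78.8% and 81.3%).

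Within genes the sign depended on the comparator. Against mean ratios of all longer internal introns the median difference at the 5ʹSS was -0.0018 for CB-RNA, 0.00422 for RNAe, -0.00707 for RNAe + RNAf, -0.00457 for RNAf and -0.0012 for mRNA, and at the 3ʹSS in the same order of groups -0.0106, -0.00474, -0.0135, -0.00727 and -0.00154. Against introns of 80 bp to under 120 bp only, it was 0.0149, 0.0187, 0.0106, 0.00441 and 0.0 at the 5ʹSS and 0.00878, 0.0171, 0.00606, 0.00465 and 0.0 at the 3ʹSS. Comparisons with a single neighbour were chosen after seeing the data. Against the preceding longer intron the 5ʹSS difference was 0.0201, 0.03, 0.0125, 0.00882 and 0.000324, and that at the 3ʹSS 0.0231, 0.0291, 0.00601, 0.00927 and 0.000219. Against the next longer intron it was 0.0185 and 0.00583 at the 5ʹSS and 3ʹSS in CB-RNA, 0.0 at the 3ʹSS in RNAe + RNAf, 0.00514 and 0.00466 in RNAf, and 0.0 at both sites in mRNA. With reads summed within the gene it was 0.00456 and -0.00222 in CB-RNA and 0.00548 at the 3ʹSS in RNAe, and with a minimum of 10 exonic reads it was 0.00199 at the 5ʹSS in CB-RNA.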

Other observations

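Among members of 60 to 79 bp, the first 6 bases went with different levels. The 220 introns that began with GTAATT had 5ʹSS medians of 0.273 in RNAe, 0.0323 in RNAf and 0.00414 in mRNA, and the 428 that began with GTATGT had 0.302, 0.0439 and 0.00544. The 975 that began with GTAAGT lay higher, at 0.315, 0.0575 and 0.00752. Introns with the least T, those of 14.1% to 36.5%, had a 5ʹSS median of 0.386 in RNAe, and the 3 equal classes with more T had 0.316 to 0.319. In RNAf the least and the most T had similar medians, 0.0668 and 0.0644, with 0.0541 and 0.058 between. In mRNA the median was 0.0108 with the least T and 0.00743 to 0.00822 in the other classes. These groupings were made with no test and differ in the genes they hold.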
